A study of Mus musculus with 30 samples.

Results

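The oxysterol-binding protein family was followed in the gastrocnemius, diaphragm, heart and liver of myotubularin-deficient and wild-type (WT) mice. The 10 genes described are *Osbp*, *Osbpl1a*, *Osbpl2*, *Osbpl3*, *Osbpl5*, *Osbpl6*, *Osbpl7*, *Osbpl8*, *Osbpl9* and *Osbpl11*, out of 36103 genes in the deposited count table. They were taken by symbol, and the family was selected on the lower count of *Osbpl6* in the *Mtm1*-/y gastrocnemius, so the gastrocnemius values of *Osbpl6* are given as a description without a test. The family genes *Osbp2* and *Osbpl10* were outside this choice and are given beside the members.

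Proteins of this family carry a ligand-binding domain that lifts a single lipid out of a membrane. Several of them sit where the endoplasmic reticulum touches another membrane, bring cholesterol or phosphatidylserine across the gap and return phosphatidylinositol 4-phosphate (PI4P) in exchange. The exchange runs on PI4P, which kinases make at the Golgi and the plasma membrane and which the phosphatase encoded by *Sacm1l* removes at the endoplasmic reticulum. Myotubularin, the product of *Mtm1*, is also a phosphoinositide phosphatase, acting on lipids of endosomes, and its loss causes a myopathy of skeletal muscle.

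RNA-seq was performed on 30 libraries from male mice aged 5 weeks on a 129Pas background. The *Mtm1*-/y group carried a knock-out of *Mtm1* in the whole animal, and the controls were WT littermates. There were 4 WT and 4 *Mtm1*-/y libraries from the gastrocnemius and from the heart, 4 and 3 from the diaphragm, and 3 and 4 from the liver. According to the methods each library was 1 mouse, and whether 1 mouse gave more than 1 tissue was not stated. Raw counts were compared between genotypes within each tissue by edgeR's quasi-likelihood test, and a gene passed at an adjusted p under 0.05 over all genes tested. Where no tool is named, an adjusted p is edgeR's, and DESeq2 was the alternative. Levels within a tissue are given in CPM, read counts brought to a common library size by TMM, which offsets a few abundant genes taking a different share of a library. Levels between genes or tissues are given as CPM per kb of exon. Coordinates are those of the protein-coding genes in GRCm38 (mm10).

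Libraries held 24873817 to 44289343 counts. *Mtm1* itself was lower in *Mtm1*-/y libraries of every tissue, with log2 differences of -2.07 for gastrocnemius, -2.26 for diaphragm, -2.59 for heart and -1.60 for liver, and 3.37 to 6.40 CPM remained. Markers of skeletal fibres summed to 128900 to 239400 CPM in the gastrocnemius and 57690 to 90990 in the diaphragm, cardiac markers to 51730 to 78380 in the heart, and hepatocyte markers to 138600 to 170700 in the liver. Hepatocyte markers were also high in 4 of the 7 diaphragm libraries, with 27120 to 51980 CPM in WT replicates 1, 2 and 4 and *Mtm1*-/y replicate 2, against 520 to 3224 CPM in the other 3 diaphragm libraries and at most 112 CPM in the gastrocnemius. The spread between diaphragm libraries of 1 group was the widest, with a common biological coefficient of variation of 0.394 against 0.171 in the gastrocnemius, 0.208 in the heart and 0.229 in the liver. Some of the results that use the diaphragm are therefore also given without the 4 libraries, a choice made after seeing the data. The others include all diaphragm libraries only. In whole tissue, fewer cells of a type and less RNA per cell cannot be told apart.

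*Osbpl6* and *Osbpl3*, relatives in the third sub-family, had the largest genotype differences of the 10 members in the gastrocnemius. The bases just upstream of their annotated starts are shown for that reason (RefSeq, GRCm38.p6). Capitals mark GC boxes (GGGCGG) and E-boxes (CANNTG), each searched on both strands, and no 2 of the marked matches overlap.
*Osbpl6*, chr2:76406258-76406507, plus strand: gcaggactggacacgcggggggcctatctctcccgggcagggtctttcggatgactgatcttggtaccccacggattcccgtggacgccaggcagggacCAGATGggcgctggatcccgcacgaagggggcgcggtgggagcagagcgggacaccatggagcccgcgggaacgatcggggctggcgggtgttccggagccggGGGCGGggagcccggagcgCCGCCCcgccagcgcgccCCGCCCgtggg
*Osbpl3*, chr6:50456202-50456420, minus strand: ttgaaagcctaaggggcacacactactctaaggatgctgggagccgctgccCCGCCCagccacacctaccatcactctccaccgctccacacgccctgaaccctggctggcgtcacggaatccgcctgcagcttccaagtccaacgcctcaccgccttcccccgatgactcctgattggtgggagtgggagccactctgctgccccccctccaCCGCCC
The *Osbpl6* stretch had 250 bases, 74% G and C, 3 GC boxes and 1 E-box. The *Osbpl3* stretch had 219 bases, 64.8% G and C, 2 GC boxes and no E-box. A second *Osbpl6* start in the RefSeq table, with its window at chr2:76498756-76499005, had 46.4% G and C, no GC box and 1 E-box and is not printed. A GC box occurred in 32.7% of 32851 mouse promoter windows of 250 bases and in 28.3% of those of 219 bases, and an E-box in 66.2% and 62%. A match here is a description of the letters, not evidence of binding.

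In WT mice the family was expressed in all 4 tissues, but *Osbpl6* and *Osbpl3* were the members most unevenly spread over them. Summed over the 10 members, WT levels were 80.5 ± 2.80 CPM per kb for gastrocnemius (SD, n = 4), 79.2 ± 3.56 for diaphragm (n = 4), 99.2 ± 4.82 for heart (n = 4) and 102 ± 4.33 for liver (n = 3). With libraries scaled by their totals alone these means were 65.7, 90.7, 119 and 81.3, in another order of tissues. The member with the largest part of this sum was *Osbp* in the gastrocnemius (38.0%), diaphragm (26.4%) and heart (31.4%) but *Osbpl1a* in the liver (28.7%). The highest mean was in the heart for 4 members, in the gastrocnemius for 3, in the liver for 2 and in the diaphragm for 1. Tissues were compared in 1 fit of the 15 WT libraries.

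**Figure D1:**
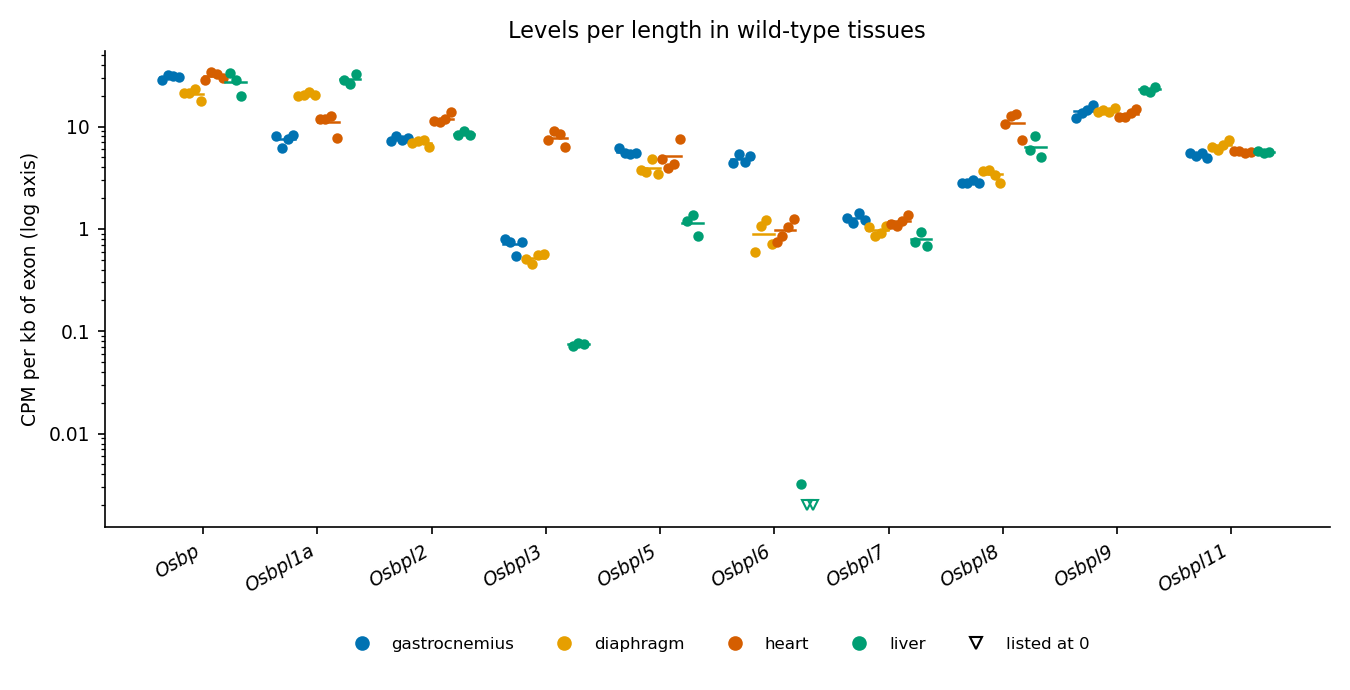
Levels of the 10 members in WT libraries, in CPM per kb of exon on a log axis, with each point 1 library, lines for means, each tissue in its own colour and open triangles for libraries without a read. *Osbpl6* stands highest in the gastrocnemius and *Osbpl3* in the heart, and *Osbp* and *Osbpl9* are high in all 4 tissues.

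*Osbp* (ENSMUSG00000024687, chr19:11965941-11994112, plus strand) encodes the founding member, which carries cholesterol from the endoplasmic reticulum to the Golgi. Its WT means were 31.1 CPM per kb in the heart, 30.6 in the gastrocnemius, 27.2 in the liver and 20.95 in the diaphragm, and no neighbours in this order differed beyond their spread (adjusted p = 0.96, 0.15 and 0.054). Between tissues further apart in the order, *Osbp* was higher in the gastrocnemius than in the diaphragm (log2 difference 0.58, adjusted p = 0.0029) and lower in the diaphragm than in the heart (-0.57, adjusted p = 0.0036), calls that were both lost with WT diaphragm replicate 3, the one of low hepatocyte markers, alone (adjusted p = 0.28 and 0.25). *Osbp2*, its closest relative, was low in 3 tissues and reached 3.48 CPM per kb in the heart, 3.85 above the diaphragm on the log2 scale (SE 0.436, adjusted p = 7.8e-06).

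*Osbpl1a* (ENSMUSG00000044252, chr18:12755314-12941841, minus strand) encodes a protein whose long form sits on late endosomes, senses cholesterol and binds Rab7. Every step in its order passed, with 29.1 CPM per kb for liver, 20.7 for diaphragm, 11.1 for heart and 7.51 for gastrocnemius. Diaphragm minus liver was -0.45 on the log2 scale (adjusted p = 0.014), a call lost without WT liver replicate 3 (-0.36, adjusted p = 0.066) and with WT diaphragm replicate 3 alone (-0.36, adjusted p = 0.21). *Osbpl2* (ENSMUSG00000039050, chr2:180119306-180162680, plus strand), whose product delivers cholesterol to the plasma membrane, was highest in the heart at 12.0 CPM per kb. It was 0.53 above the liver on the log2 scale (SE 0.088, adjusted p = 6.9e-05), and its other neighbours did not differ beyond their spread. Further apart in the order, gastrocnemius minus heart was -0.62 (adjusted p = 1.4e-05) and diaphragm minus heart -0.78 (adjusted p = 3.2e-06). Diaphragm minus liver was -0.25 (adjusted p = 0.018), a call lost with WT diaphragm replicate 3 alone (-0.15).

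The third sub-family holds *Osbpl3*, *Osbpl6* and *Osbpl7*, and its members were distributed in different ways. *Osbpl3* (ENSMUSG00000029822, chr6:50293330-50456201, minus strand), known for binding the small GTPase R-Ras and for a part in cell adhesion, had a WT mean of 7.81 CPM per kb in the heart. That was 3.43 above the gastrocnemius on the log2 scale (SE 0.137, adjusted p = 1.2e-10), where the mean was 0.705. The gastrocnemius exceeded the diaphragm by 0.47 (adjusted p = 0.0072), a call lost with WT diaphragm replicate 3 alone (0.34, adjusted p = 0.29). *Osbpl6* (ENSMUSG00000042359, chr2:76406508-76600647, plus strand), a less studied protein of the endoplasmic reticulum, stood the other way between heart and gastrocnemius. Its WT mean was 4.87 CPM per kb in the gastrocnemius and 0.980 in the heart, a log2 difference of 2.35 (SE 0.218), given without a test because the gene was selected on these gastrocnemius libraries. The heart and the diaphragm, at 0.900, did not differ beyond their spread for *Osbpl6* (adjusted p = 0.65). Both genes were lowest in the liver. *Osbpl6* had 1, 0 and 0 reads in the 3 WT liver libraries, under a floor of 3 reads (0.0771 to 0.113 CPM), so no fold is given. *Osbpl7* (ENSMUSG00000038534, chr11:97050628-97068904, plus strand) ranged from 0.789 CPM per kb in the liver to 1.27 in the gastrocnemius, and no neighbours differed beyond their spread. It was higher in the gastrocnemius than in the liver (log2 difference 0.76, adjusted p = 0.00031) and than in the diaphragm (0.42, adjusted p = 0.016). The call against the diaphragm was lost with WT diaphragm replicate 3 alone (0.475). *Osbpl7* was also higher in the heart than in the liver (0.63, adjusted p = 0.0014).

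*Osbpl5* and *Osbpl8* encode proteins anchored in the endoplasmic reticulum that bring phosphatidylserine to the plasma membrane. *Osbpl5* (ENSMUSG00000037606, chr7:143688762-143756985, minus strand) was at 5.69 CPM per kb in the gastrocnemius, 5.14 in the heart and 3.91 in the diaphragm. Neighbours among these did not pass. The gastrocnemius exceeded the diaphragm by 0.58 on the log2 scale (SE 0.189, adjusted p = 0.019), a call lost with WT diaphragm replicate 3 alone (0.229). It was lower in the liver at 1.14 (log2 difference from the diaphragm 1.81, SE 0.222, adjusted p = 5.5e-06). *Osbpl8* (ENSMUSG00000020189, chr10:111164752-111297249, plus strand) was highest in the heart at 10.95 CPM per kb, followed by 6.29 in the liver (adjusted p = 0.0013), 3.43 in the diaphragm (adjusted p = 0.0013) and 2.87 in the gastrocnemius (adjusted p = 0.31).

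*Osbpl9* and *Osbpl11* encode partners that bind each other at Golgi and endosomal membranes. *Osbpl9* (ENSMUSG00000028559, chr4:109061145-109202272, minus strand) was highest in the liver at 23.1 CPM per kb and lay between 13.3 and 14.4 in the 3 muscles. *Osbpl11* (ENSMUSG00000022807, chr16:33185071-33243312, plus strand) was the most even member, at 5.27 to 6.53 CPM per kb. On the log2 scale, gastrocnemius minus diaphragm was -0.28 (adjusted p = 0.0049) and diaphragm minus liver 0.26 (adjusted p = 0.0072). With WT diaphragm replicate 3 alone these were -0.32 and 0.28. Its diaphragm exceeded its heart by 0.20 on the log2 scale (SE 0.072, adjusted p = 0.028), a call lost without WT heart replicate 3 (0.19, adjusted p = 0.071) and with WT diaphragm replicate 3 alone (0.23, adjusted p = 0.14).

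Of the 9 members other than *Osbpl6*, 6 passed between WT gastrocnemius and diaphragm (54.4% of all genes tested), 4 between gastrocnemius and heart (61.3%), 6 between gastrocnemius and liver (79.5%), 6 between diaphragm and heart (51.7%), 7 between diaphragm and liver (76.1%) and 7 between heart and liver (76.4%). With 9 genes, nothing is read from the counts against these shares. With the WT diaphragm library of low hepatocyte markers alone, the first count was 2, namely *Osbpl1a* (-1.54) and *Osbpl11* (-0.32), as log2 differences of gastrocnemius minus diaphragm, and *Osbpl6* was at 1.98 as a description.

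To assess the family in the affected limb muscle, *Mtm1*-/y and WT gastrocnemius were compared. *Osbpl6* and *Osbpl3* moved in opposite directions, *Osbpl5*, *Osbpl8* and *Osbpl1a* rose by less, and the other members stayed within 0.21 of WT on the log2 scale. By edgeR 4 members rose, against 14.1% of all 15456 genes tested, and 2 were lower, against 14.9%. One of these 2 was *Osbpl6*, whose value chose the family. The groups did not overlap for 5 members, against 30.7% of all genes tested, and DESeq2 called 6 members, against 25.7% of all genes. Because the rule used this contrast, nothing is read from these counts. The median log2 difference of the members was 0.10, and that of all genes was 0.02.

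*Osbpl6* was at 40.5, 49.95, 42.3 and 47.1 CPM in the WT gastrocnemius and at 14.6, 16.6, 13.3 and 12.7 CPM in the *Mtm1*-/y gastrocnemius. Every *Mtm1*-/y library lay below every WT library, and the means were 45.0 ± 4.32 and 14.3 ± 1.74 (SD, n = 4 each). The log2 difference was -1.66 (SE 0.104), or 0.317 of the WT level, and 471 to 607 reads still covered the gene in each *Mtm1*-/y library.

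*Osbpl3* was at 6.62, 6.13, 4.55 and 6.03 CPM in the WT gastrocnemius and at 22.6, 16.1, 16.9 and 13.5 CPM in the *Mtm1*-/y gastrocnemius. The groups were apart, with means of 5.83 ± 0.892 and 17.3 ± 3.85 (SD, n = 4 each). *Osbpl3* rose 2.96-fold (log2 difference 1.57, SE 0.17, adjusted p = 0.00032), the largest rise among the 10 members, from 152 to 238 reads per WT library to 501 to 944 reads per *Mtm1*-/y library.

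**Figure D2:**
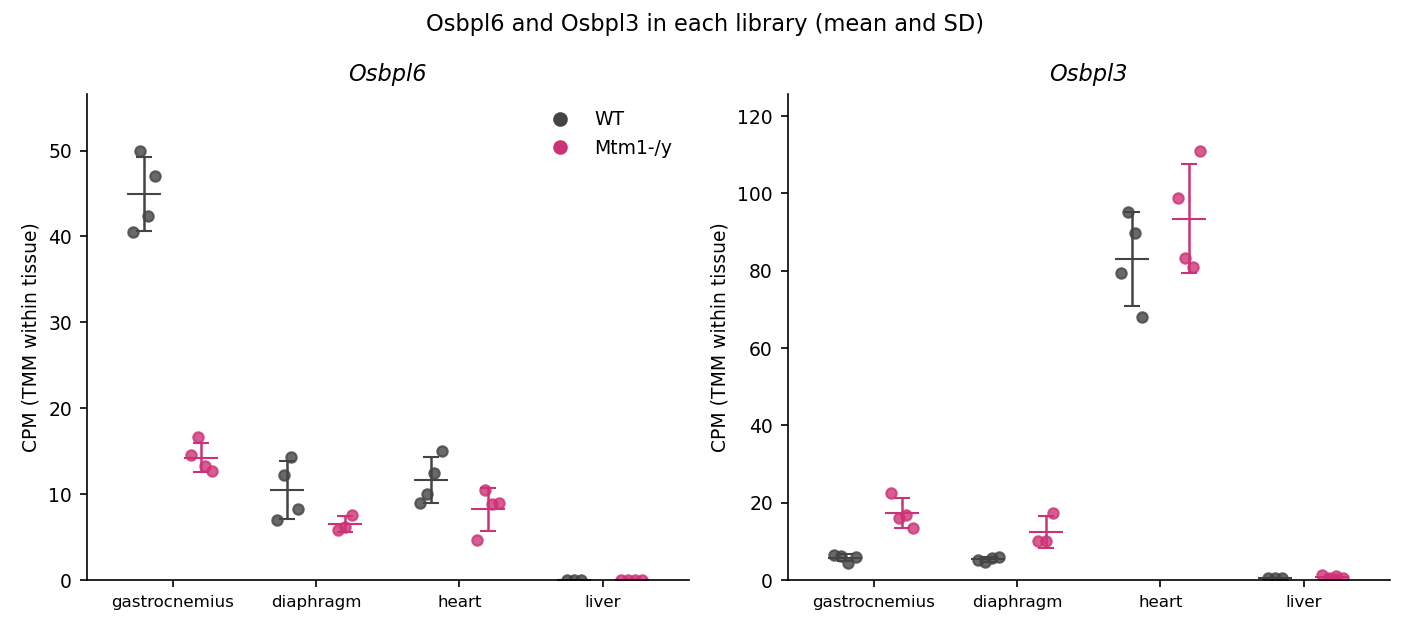
CPM of *Osbpl6* and *Osbpl3* in each library of each tissue, with WT and *Mtm1*-/y side by side, points for libraries and a line with bars for mean and SD. In the gastrocnemius the genotypes are apart for both genes, with *Osbpl6* lower and *Osbpl3* higher in *Mtm1*-/y, and in the diaphragm they are apart for *Osbpl3*.

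The phosphatidylserine carriers both rose in the gastrocnemius. *Osbpl5* was at 28.1, 25.0, 24.8 and 24.8 CPM in WT and at 39.2, 40.4, 33.9 and 36.5 CPM in *Mtm1*-/y. The groups were apart, with means of 25.7 ± 1.64 and 37.5 ± 2.89 (SD, n = 4 each). It rose 1.46-fold (log2 difference 0.55, SE 0.077, adjusted p = 0.00097). *Osbpl8* was at 24.2, 24.5, 26.2 and 24.0 CPM in WT and at 30.5, 32.4, 33.2 and 26.6 CPM in *Mtm1*-/y. The lowest *Mtm1*-/y library was just above the highest WT library, and the gene rose by 0.31 on the log2 scale (SE 0.08, adjusted p = 0.017).

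The remaining calls were smaller. *Osbpl1a* was at 57.9, 44.7, 54.2 and 57.8 CPM in WT and at 77.0, 76.7, 61.0 and 60.3 CPM in *Mtm1*-/y, a rise of 0.36 on the log2 scale (SE 0.114, adjusted p = 0.041). *Osbp* was at 118, 131, 130 and 124 CPM in WT and at 111, 105, 101 and 118 CPM in *Mtm1*-/y. It fell by 0.21 on the log2 scale (SE 0.070, adjusted p = 0.046), a direction that turned to 0.13 when libraries were scaled by their totals alone, and the groups overlapped at 1 library. Neither call was stable. *Osbp* lost its call without WT replicate 2, 3 or 4 or *Mtm1*-/y replicate 1, 2 or 3 (-0.16 to -0.22, adjusted p = 0.078 to 0.12), and *Osbpl1a* without any 1 WT replicate or *Mtm1*-/y replicate 1 or 2 (0.28 to 0.39, adjusted p = 0.055 to 0.11).

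**Figure D3:**
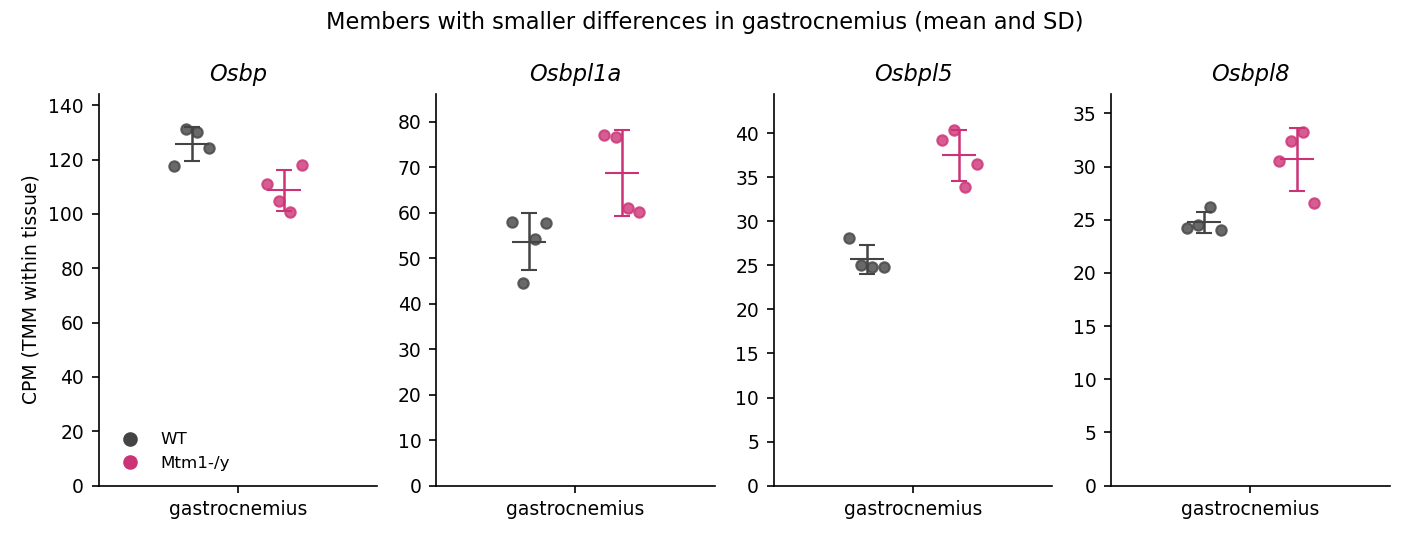
CPM of *Osbp*, *Osbpl1a*, *Osbpl5* and *Osbpl8* in the 4 WT and 4 *Mtm1*-/y gastrocnemius libraries, with points for libraries and a line with bars for mean and SD. *Osbpl5*, *Osbpl8* and *Osbpl1a* are higher in *Mtm1*-/y with no overlap, and *Osbp* is lower with 1 overlapping library at this scaling, a direction that turns with library totals alone.

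The members that did not pass were *Osbpl2* at 27.9 to 31.1 CPM in WT and 26.6 to 30.5 in *Mtm1*-/y, *Osbpl7* at 6.17 to 7.82 and 6.45 to 9.10, *Osbpl9* at 77.5 to 104 and 82.6 to 100.2, and *Osbpl11* at 23.0 to 25.7 and 22.3 to 26.5. Their adjusted p ranged from 0.27 to 0.98. Outside the chosen members, *Osbpl10*, whose product carries phosphatidylserine to the Golgi, fell between a WT mean of 3.68 ± 0.374 CPM and a *Mtm1*-/y mean of 2.56 ± 0.394 CPM (SD, n = 4 each), a log2 difference of -0.52 (SE 0.155, adjusted p = 0.031). *Osbp2* had under 1.4 CPM in each gastrocnemius library and did not pass (adjusted p = 0.26).

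The scaling mattered in this tissue. With library totals alone, a setting added after seeing the data, the median log2 difference of all genes moved from 0.02 to 0.35, 8 members rose and 1 was lower. *Osbpl3* was then at 1.91 and *Osbpl6* at -1.31 on the log2 scale. In 1 fit of all 30 libraries, whose spread is shared with the other tissues, *Osbpl3* was the member whose rise passed, and *Osbpl5* (0.53, adjusted p = 0.084), *Osbpl8* (0.30, adjusted p = 0.23), *Osbpl1a* (adjusted p = 0.096) and *Osbp* (adjusted p = 0.29) did not.

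Cell type markers moved with genotype in the gastrocnemius as well. Of 9 skeletal fibre markers 7 fell and 2 rose, and their sum was 201700 to 239400 CPM in WT and 128900 to 142500 in *Mtm1*-/y. Of 11 macrophage markers 10 rose, with sums of 58.0 to 103 and 172 to 208 CPM, and of 9 adipocyte markers 6 rose, with sums of 236 to 356 and 352 to 527 CPM. Of 8 fibroblast markers 4 rose (2993 to 8088 and 3473 to 9977 CPM), of 6 endothelial markers 2 fell (310 to 413 and 237 to 308 CPM), and of 5 cardiac markers tested 3 rose and 1 fell (6300 to 7177 and 604 to 2317 CPM). The 8 B and T cell markers summed to 55.3 to 77.5 CPM in WT and 5.44 to 9.10 in *Mtm1*-/y, with 1 of them tested and lower. None of 7 Schwann cell markers passed (105 to 388 and 163 to 486 CPM), and 11 hepatocyte markers tested, with sums up to 112 CPM, had 1 rise and 1 fall. The part of these cell types in the family's values was not tested.

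The diaphragm, the second skeletal muscle, had *Osbpl3* higher in every *Mtm1*-/y library, past the test by DESeq2 and not by edgeR. By edgeR 0 of the 10 members rose or fell, where 0% of 16796 genes rose and 0.0119% fell. At an unadjusted p under 0.05 there were 2 members, *Osbpl3* and *Osbpl6*, against 10.8% of all genes, and DESeq2 called *Osbpl3* alone, where 1.7% of all genes rose by that tool. The groups did not overlap for 1 member, against 9.97% of all genes. The median log2 difference was -0.01 over the members and over all genes.

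*Osbpl3* was at 5.30, 4.62, 5.84 and 5.996 CPM in the WT diaphragm and at 10.2, 10.0 and 17.3 CPM in *Mtm1*-/y replicates 1, 2 and 4. All *Mtm1*-/y libraries exceeded all WT libraries. The log2 difference was 1.2 (SE 0.223), with adjusted p = 0.26 by edgeR and 0.00052 by DESeq2 (1.22). Without *Mtm1*-/y replicate 4, the highest library, it was 0.90 by edgeR. In the 3 libraries of low hepatocyte markers it was 1.23 (adjusted p = 0.6), and with the hepatocyte score as a covariate 1.1 (adjusted p = 0.082).

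*Osbpl6* was at 7.06, 12.3, 14.4 and 8.26 CPM in the WT diaphragm and at 5.83, 6.14 and 7.63 CPM in *Mtm1*-/y. The groups overlapped, with the lowest WT library inside the *Mtm1*-/y range. The log2 difference was -0.68 (SE 0.273), with adjusted p = 0.44 by edgeR and 0.29 by DESeq2. In the 3 libraries of low hepatocyte markers it was -1.1 (adjusted p = 0.6), and with the hepatocyte score -0.76 (adjusted p = 0.18). The 8 other members had log2 differences from -0.11 for *Osbpl1a* to 0.42 for *Osbpl5* and overlapped between genotypes.

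In the heart 0 members passed by edgeR, at an unadjusted p under 0.05 or by DESeq2, where 0% of 15238 genes rose and 0.00656% fell by edgeR, 8.88% were under an unadjusted p of 0.05 and DESeq2 called 0.453%. No member's groups were apart, against 4.26% of all genes. *Osbpl3*, abundant in this tissue, was at 79.3, 95.1, 89.8 and 67.9 CPM in WT and at 98.8, 83.2, 80.9 and 111 CPM in *Mtm1*-/y, a log2 difference of 0.17 (SE 0.134, adjusted p = 0.61). *Osbpl6* was at 9.002, 10.02, 12.5 and 15.02 CPM in WT and at 4.70, 10.5, 8.83 and 9.004 CPM in *Mtm1*-/y, a log2 difference of -0.49 (SE 0.25, adjusted p = 0.55). The 10 differences ranged from -0.49 to 0.17. *Osbpl5* was the other member past 0.4 in size, at -0.45 (SE 0.229, adjusted p = 0.55).

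WT heart replicate 4 was the lowest or highest WT heart library for several members. This library had the lowest *Osbpl8* (81.7 CPM against 119 to 146) and *Osbpl1a* (72.1 against 108 to 117) and the highest *Osbpl5* (43.5 against 22.6 to 28.0) of the WT hearts. *Osbp2* was also highest there, at 40.9 CPM against 18.3 to 24.0.

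In the liver 9 members could be tested and 0 passed by edgeR, at an unadjusted p under 0.05 or by DESeq2. Over all 14305 genes 0% rose and 0% fell by edgeR, so the targeted gene *Mtm1*, at -1.6, was not called there either. An unadjusted p under 0.05 was seen for 4.24% of genes, and DESeq2 called 0.163%. The groups were apart for 6.09% of genes and for none of the 9. *Osbpl3* was at 0.514, 0.549 and 0.527 CPM in WT and at 1.44, 0.650, 0.973 and 0.513 CPM in *Mtm1*-/y liver, and the groups overlapped (log2 difference 0.74, SE 0.402, adjusted p = 0.97). The other 8 lay between -0.19 and 0.13. *Osbpl6* was left out of the test, with 1 to 3 reads in each *Mtm1*-/y library and 0 or 1 in each WT library, both at or under the floor.

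**Figure D4:**
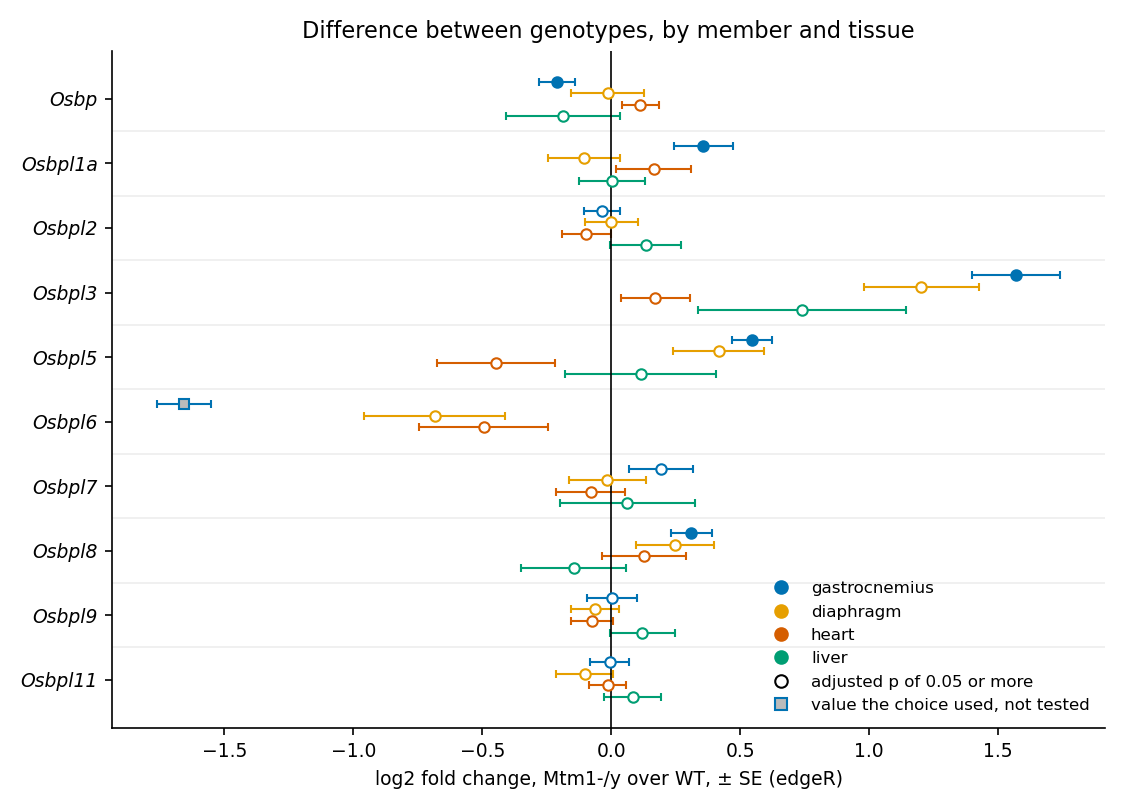
Log2 difference between *Mtm1*-/y and WT for the 10 members in each tissue, with bars for 1 SE, filled circles for values that passed, open circles for the others and a grey square for the value that chose the family. The gastrocnemius has the widest spread, from *Osbpl6* at -1.66 to *Osbpl3* at 1.57, and the heart values lie between -0.49 and 0.17. The sign of *Osbp* in the gastrocnemius turns with library totals alone.

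Whether the gastrocnemius differences themselves departed from those of other tissues was tested as an interaction, with the same gastrocnemius libraries in all 3 comparisons. Against the heart, 3 members other than *Osbpl6* passed, where 19.8% of all genes did. The genotype difference of *Osbpl3* was larger in the gastrocnemius by 1.38 on the log2 scale (SE 0.23, adjusted p = 0.0012), that of *Osbpl5* by 0.98 (SE 0.252, adjusted p = 0.015), and that of *Osbp* was lower, at -0.34 (SE 0.098, adjusted p = 0.025). *Osbpl5* pointed up in the gastrocnemius and down in the heart, and its value without WT heart replicate 4 was 0.75. For *Osbp* the call was lost without WT gastrocnemius replicate 2, *Mtm1*-/y gastrocnemius replicate 3, WT heart replicate 1 or WT heart replicate 4 (-0.29 to -0.32, adjusted p = 0.051 to 0.062). The value of *Osbpl6*, given as a description, was -1.18 (SE 0.279).

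Against the diaphragm 0 members passed by edgeR or DESeq2, where 0.28% of all genes did by edgeR. *Osbpl3* differed by 0.38 (SE 0.293, adjusted p = 0.62), so its rise in the gastrocnemius was not shown to exceed the diaphragm value. *Osbpl6* differed by -0.96 (SE 0.283), and by -0.56 with the diaphragm libraries of low hepatocyte markers alone. Against the liver 0 members other than *Osbpl6* passed by edgeR or DESeq2, where 6.34% of all genes did, and *Osbpl3* differed by 0.81 (SE 0.405, adjusted p = 0.25).

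Within the third sub-family the balance between *Osbpl6* and *Osbpl3* was inverted in the *Mtm1*-/y gastrocnemius and diaphragm. Per kb of exon, *Osbpl6* was 5.48 to 8.33 times *Osbpl3* in WT and 0.576 to 0.923 times in *Mtm1*-/y. In the diaphragm this ratio was 1.19 to 2.38 in WT and 0.396 to 0.549 in *Mtm1*-/y, and in the heart 0.0944 to 0.198 and 0.0427 to 0.113. The genotypes did not overlap in the skeletal muscles and overlapped in the heart. The ratio is independent of the scaling of a library, and it holds the *Osbpl6* values that chose the family, so no test was made.

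**Figure D5:**
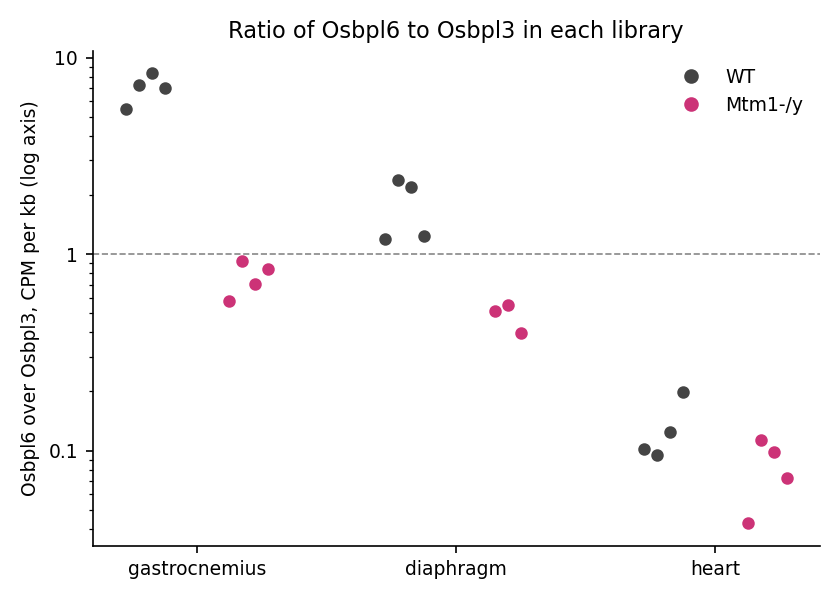
Ratio of *Osbpl6* to *Osbpl3* per kb of exon in each gastrocnemius, diaphragm and heart library, on a log axis, WT beside *Mtm1*-/y. The ratio is above 5 in WT and below 1 in *Mtm1*-/y gastrocnemius. In the diaphragm it is above 1 in WT and below 1 in *Mtm1*-/y, and in the heart the genotypes overlap.

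*Osbpl6* made up 67.9 to 74.2% of the sub-family sum in the WT gastrocnemius and 27.3 to 34.5% in *Mtm1*-/y, while *Osbpl3* made up 8.37 to 12.4% and 34.8 to 47.4%. The sum over all 10 members was 80.5 ± 2.80 CPM per kb in WT and 79.2 ± 3.64 in *Mtm1*-/y gastrocnemius (SD, n = 4 each), although with library totals alone the means were 65.7 and 82.1. The diaphragm sums were 79.2 ± 3.56 and 77.5 ± 6.07 (n = 4 and 3), the heart sums 99.2 ± 4.82 and 102 ± 2.54 (n = 4 each), and the liver sums 102 ± 4.33 and 102 ± 5.12 (n = 3 and 4).

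Genes that work with the family were read from 7 lists of 111 genes. In the gastrocnemius 105 were tested, of which 15 rose and 21 fell, where 14.1% of all genes rose and 14.9% fell, and DESeq2 called 42, where it called 25.7% of all genes. In the other tissues 0 passed by edgeR, with 9, 5 and 2 genes at an unadjusted p under 0.05 in the diaphragm, heart and liver (10.8%, 8.88% and 4.24% of all genes). DESeq2 called 2 in the diaphragm (*Pitpnm3* and *Mylip*, where it called 2.37% of all genes) and 0 in the heart and liver.

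Among 13 anchors and tethers of membrane contacts in the gastrocnemius 2 rose and 4 fell (median log2 difference 0.02, as over all genes). The lipid transfer protein gene *C2cd2* fell from 278 ± 26.2 to 150 ± 10.4 CPM (log2 difference -0.89, SE 0.084, adjusted p = 0.00017), *Tmcc1* was at -0.78 (adjusted p = 0.00053) and *Anxa6*, an annexin, at 0.41 (adjusted p = 0.0027). Of 11 genes that make or remove PI4P 2 rose and 2 fell (median -0.13). The kinase gene *Pi4k2b* was at 0.65 (adjusted p = 0.017), and *Ttc7* and *Ttc7b*, which encode scaffolds of the plasma membrane PI4P kinase, at -0.37 (adjusted p = 0.016) and -0.30 (adjusted p = 0.0088).

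Of 16 genes of phosphatidylserine synthesis and flipping 4 rose and 4 fell (median 0.02). The flippase gene *Atp8a1* fell from 85.6 ± 7.26 to 48.8 ± 1.22 CPM (-0.81, SE 0.070, adjusted p = 0.00012), *Atp11a* was at -0.52 (adjusted p = 0.0016) and *Atp9a* at 0.76 (adjusted p = 0.0043). Of 23 other lipid transfer genes 2 rose and 6 fell (median -0.02). They included the phosphatidylinositol transfer protein genes *Pitpnc1* at -0.85 (adjusted p = 0.00037), *Pitpna* at -0.55 (adjusted p = 0.0023) and *Pitpnm1* at 0.62 (adjusted p = 0.004).

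Of 23 genes of cholesterol synthesis and LDL uptake 1 rose and 3 fell (median -0.01). *Mvd*, of the mevalonate pathway, was at 0.72 (adjusted p = 0.0015), and the late synthesis genes *Sc5d* and *Dhcr7* were at -0.45 (adjusted p = 0.0019) and -0.50 (adjusted p = 0.011). Of 12 genes of oxysterol receptors, their targets, cholesterol export and sterol-modifying enzymes 3 rose and 1 fell (median 0.35). *Apoe* was at 0.94 (adjusted p = 0.01), *Cyp46a1*, a cholesterol hydroxylase near the detection limit, at 0.99 (adjusted p = 0.0088), and the lipogenic regulator *Srebf1* at -0.64 (adjusted p = 0.014). Macrophages also express *Apoe*, and 10 of their 11 markers rose in the same libraries. The part of macrophages in the value of *Apoe* was not tested. Of 7 genes of R-Ras and partners of the *Osbpl3* and *Osbpl1a* products, *Rras* rose (0.80, SE 0.113, adjusted p = 0.00098) and *Rab7* fell (-0.51, SE 0.077, adjusted p = 0.0013).

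The genes whose log2 CPM followed *Osbpl6* most closely over the 30 libraries, among 14097 genes, were *Fam131a* (Pearson r = 0.985), *Slc45a4* (0.983), *Vdac3* (0.978), *Smco1* (0.977) and *D830039M14Rik* (0.976). Those closest to *Osbpl3* were *Slc4a3* (0.988), *Ndrg4* (0.987), *Rcor2* (0.982), *Fbxo10* (0.979) and *Gpr27* (0.972). The libraries fall into 4 tissues, so these values mostly describe the order of tissues.

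Part of the exon sequence of 3 members overlaps a gene on the opposite strand, 11% for *Osbpl1a*, 9.04% for *Osbpl9* (with *Nrd1*) and 5.42% for *Osbpl7*. Libraries were stranded, the strand setting of the counting is not given in the sources used here, and without strand such reads could not be told apart and would have been dropped as ambiguous. No exon of *Osbpl3*, *Osbpl5*, *Osbpl6* or *Osbpl8* overlaps another gene.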

How the data were processed

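The deposited values are raw read counts per gene, which the authors made from single reads of 50 bases (TruSeq Stranded mRNA libraries, bcl2fastq 2.17.1.14). Adapters and bases under a Phred score of 20 were cut with cutadapt 1.10 and reads under 40 bases dropped, STAR 2.5.3a mapped the rest to mm10, and HTSeq 0.6.1p1 in union mode counted unique, unambiguous reads over Ensembl 96 genes. The strand setting is not given in the sources used here.

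Within each tissue, genes were filtered by filterByExpr at a count minimum of 10, scaled by TMM and tested with edgeR 4.0.16 (two-sided quasi-likelihood F test, Benjamini-Hochberg adjustment) in R 4.3.3. DESeq2 1.42.0 was run with default settings. Tissues of WT mice were compared in 1 fit of 15 libraries, and genotype effects between tissues as an interaction in a fit of both tissues. CPM per kb used TMM over all 30 libraries and the union of exons of GENCODE M21, which also gave coordinates (GRCm38). Promoter letters came from RefSeq, which had entries for 9 of the 10 members. The edgeR comparison of genotypes within each tissue was first tested on simulated data of known change. The fits between tissues and DESeq2 were not tested in this way. Libraries held 24873817 to 44289343 counts, 84 genes had none, and no 2 libraries were identical. The floor of 3 reads covers counting error only.

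The members and lists were chosen with earlier results of these data known. Named were all members, with full statistics where they passed in edgeR or DESeq2 and for *Osbpl6* and *Osbpl3* in each tissue, *Osbp2*, *Osbpl10*, *Mtm1*, up to 3 genes per list that passed in the gastrocnemius, by smallest p, and the 5 genes closest to *Osbpl6* and to *Osbpl3* by Pearson r among genes of at least 1 CPM on average. *Mylip* and *Pitpnm3* were named after their values were seen. Alternatives were DESeq2, its size factors in edgeR, no filter, all 30 libraries in 1 fit, an added fold change threshold, a replicate block, leaving out each library, a hepatocyte covariate in the diaphragm and, added after seeing the data, library totals alone and diaphragm libraries of low hepatocyte markers alone.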

Additional observations from a re-analysis of the deposited data

Results flagged for a closer look

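In 59 groups of 4 libraries, 2 had a library whose gap to its neighbour exceeded the critical value of Dixon's test, where chance gives about 1 in 20. *Osbpl5* in WT gastrocnemius replicate 1 was at 28.1 CPM, with the next library at 25.0 CPM. *Osbpl9* in WT diaphragm replicate 4 was at 123.7 CPM, with the next at 115 CPM.

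The genotype difference of 3 members other than *Osbpl6* differed between gastrocnemius and heart by edgeR's interaction test, by 1.38 for *Osbpl3* (adjusted p = 0.0012), 0.98 for *Osbpl5* (adjusted p = 0.015) and -0.34 for *Osbp* (adjusted p = 0.025) on the log2 scale.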

How the results depend on the processing

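The 6 calls among members in the gastrocnemius became 2 (1 rose, 1 lower) with all 30 libraries in 1 fit. They also became 2 with an added threshold of 1 on the absolute log2 fold change, leaving *Osbpl3* and *Osbpl6*. All gastrocnemius counts in this section include *Osbpl6*, whose value chose the family, so its place in them is a description and not a test. In the fit of all libraries the adjusted p was 0.29 for *Osbp*, 0.096 for *Osbpl1a*, 0.084 for *Osbpl5* and 0.23 for *Osbpl8*. Replicate numbers were not used in the main fits. Correlations of same-numbered WT and *Mtm1*-/y libraries ran from -0.73 to 0.55, and of WT libraries of different tissues from -0.1 to 0.29. For gastrocnemius and heart they were 0.03 to 0.19, against -0.14 to 0.04 between other numbers. For diaphragm and heart they were 0.06 to 0.19, against -0.2 to 0.14, and for gastrocnemius and diaphragm -0.06 to 0.29, against -0.22 to 0.14. Whether same-numbered WT libraries of different tissues came from 1 mouse was not settled by these values, and the fits between tissues took them as independent. A replicate block gave 4 calls in the gastrocnemius, without *Osbp* (-0.21, adjusted p = 0.09) and *Osbpl1a* (0.35, adjusted p = 0.074), and changed no other call. Without the filter on low counts 4 calls of single genes over all comparisons missed the threshold. Among them were *Osbp* (adjusted p = 0.093) and *Osbpl1a* (adjusted p = 0.06) in the gastrocnemius. *Osbp* turned to 0.13 (adjusted p = 0.12) with library totals alone, a setting that moved the median of all gastrocnemius genes from 0.016 to 0.351. The cause of the shift in the median was not tested. In the diaphragm 1 member, *Osbpl3*, passed with DESeq2 and 1 with all 30 libraries in 1 fit (1.18, adjusted p = 0.005). Between WT gastrocnemius and diaphragm, 3 members, *Osbpl6* among them, passed in place of 7 with diaphragm libraries of low hepatocyte markers alone, a fit with fewer samples. Family sums with library totals alone were 65.7 CPM per kb in WT gastrocnemius, 90.7 and 92.8 in WT and *Mtm1*-/y diaphragm, 119 and 118 in heart, and 81.3 and 78.6 in liver. Leaving out 1 library gave 4 to 6 calls in the gastrocnemius and 0 in the other tissues, and among values of single genes 386 kept their call and direction and 18 kept their direction but missed the threshold.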
